A study of Mus musculus with 16 samples.

Results

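The ATP-binding cassette (ABC) genes of the mouse were read in organoids grown from the colon. The members were the protein-coding genes whose symbol is Abc, a subfamily letter from a to g and a number, with or without a further letter. The rule found 50 genes among the 54123 genes to which the transcripts were summed: 16 in subfamily A, 10 in B, 10 in C, 4 in D, 1 in E, 3 in F and 6 in G. The rule itself uses symbols and no measured value. The rule goes by symbol, so that relatives with another kind of name, such as the chloride channel gene Cftr and the peptide transporter genes Tap1 and Tap2, were not members. Of the 50 genes, 37 had enough counts to be tested across the libraries and 13 did not.

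ABC proteins bind and split ATP in a pair of conserved domains and use the energy to move a substrate across a membrane. Each ATP site rests in part on a glycine-rich loop, the Walker A motif, that holds the phosphates. Full transporters carry both domains in 1 chain, and transporters with 1 of them act as dimers. Subfamily A holds lipid transporters, subfamily B the P-glycoproteins, the bile pumps and dimeric transporters of mitochondria and lysosomes, and subfamily C the multidrug resistance proteins and the sulfonylurea receptors, which are subunits of potassium channels. Subfamily D serves peroxisomes and lysosomes, and subfamily G exports sterols and drugs. The proteins of subfamilies E and F have no membrane spans and act on ribosomes. In the colon, P-glycoprotein and the breast cancer resistance protein Abcg2 sit on the luminal face of the epithelium and return drugs and dietary compounds to the lumen, whereas the product of Abcc3 sits on the basolateral face.

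The organoids came from female mice of 8 weeks that were heterozygous for a Cre-inducible BrafV600E allele and for a Cre-inducible tdTomato reporter. No Cre was given for these libraries, and all 8 groups share this background. Proximal organoids were grown from the first 1.0 cm and distal organoids from the last 1.0 cm of the colon. They received lentiviral Cas9 with a Scramble-sgRNA, the control, or a Cdx2-sgRNA, directed at the gene of the intestinal transcription factor Cdx2. After growth to month 4, all cultures first had 2 days of WENR-plus medium, which holds Wnt3a, EGF, Noggin and R-spondin 1, and then 3 days of either WENR-plus or WENR-minus medium, which lacks all of these factors. Each of the 8 groups (region, guide and medium) has 2 libraries, from organoids of 2 mice. The methods describe the Cdx2-sgRNA organoids as lines grown out of single cells with a frameshift in both alleles, and no such step is described for the Scramble-sgRNA organoids. A line that is 1 clone and the effect of its guide cannot be told apart with 1 line per mouse and region.

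Total counts per library ranged from 12465194 to 18922143, and 15.4 to 28.0% of them fell on mitochondrial ribosomal RNA. Levels are given as counts scaled to the library's total by the TMM method (CPM), with the values of replicates 1 and 2 in this order, and levels of different genes are compared only in TPM, a unit of transcripts that allows for length. A gene is called here where the adjusted p of edgeR's quasi-likelihood test is under 0.05 and the log2 fold change is over 1 in size. Cdx2 itself was read first. Its level was 203 and 151 CPM in proximal Scramble-sgRNA organoids in WENR-minus medium and 73.9 and 71.0 CPM in their Cdx2-sgRNA counterparts (log2 fold change -1.29, SE 0.20, adjusted p = 0.000678), and the log2 fold change was -2.09 in WENR-plus medium (SE 0.21, adjusted p = 5.49e-05). In distal organoids in WENR-minus medium it was 112 and 110.0 CPM with Scramble-sgRNA and 126 and 86.1 CPM with Cdx2-sgRNA (log2 fold change -0.07, SE 0.20, adjusted p = 0.876), and in WENR-plus medium the log2 fold change was -0.36 (adjusted p = 0.857). A frameshift can leave the transcript in place, so that these levels do not check the labels of the distal lines.

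Markers of epithelium were present in all 16 libraries and those of fibroblasts and endothelium were near 0. The 8 epithelial markers (Epcam, Cdh1 and keratins among them) summed to 4051 to 18671 CPM. Those of fibroblasts summed to at most 1.12 CPM and those of endothelium to at most 2.00 CPM. Of 7 fibroblast markers, 5 held at most 3 reads in every library (Col1a2, Col3a1, Dcn, Lum and Thy1), as did 2 of 4 endothelial markers (Cdh5 and Tek). The 7 immune markers summed to 6.45 to 26.4 CPM in proximal Cdx2-sgRNA organoids and to 1.51 to 10.03 CPM elsewhere, and Cd3e and Adgre1 held at most 3 reads in every library. Most of the sum in proximal Cdx2-sgRNA organoids in WENR-minus medium lay in Csf1r (19.4 and 5.66 CPM) and Cd68 (5.42 and 9.94 CPM).

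Markers of small intestine and stomach epithelium were not absent. The 9 markers summed to 43.4 to 65.0 CPM in distal Cdx2-sgRNA WENR-minus libraries, most of it Apoa4 (54.5 and 36.6 CPM), an intestinal apolipoprotein gene, and to 9.46 to 29.7 CPM in their Scramble-sgRNA counterparts. In proximal Scramble-sgRNA WENR-minus libraries they summed to 13.9 to 56.8 CPM, most of it the sucrase gene Sis (8.06 and 48.6 CPM), and in proximal Cdx2-sgRNA WENR-minus libraries to 1.63 to 4.50 CPM. In WENR-plus medium the sum was 0.16 to 12.01 CPM, and Lct, Fabp6, Gkn1 and Sox2 held at most 3 reads in every library. Apoa4 was thus highest in the group in which Abcc2, Abcg5 and Abcg8 were highest, and its part in those levels was not tested.

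The summed level of the differentiated colonocyte markers differed with the medium, and with the guide in proximal organoids. The 8 markers, none of them at 3 reads or fewer in both libraries of a group, summed to 10140.4 to 22878 CPM in WENR-minus medium in the Scramble-sgRNA and distal Cdx2-sgRNA groups, to 1249 to 2719 CPM in the proximal Cdx2-sgRNA group, and to 446 to 2208 CPM in WENR-plus medium. Car1 and Ceacam1 held most of the sum in the Scramble-sgRNA WENR-minus libraries of proximal organoids. Krt20, on the same list, went the other way with the guide in proximal WENR-plus organoids, at 25.9 and 20.3 CPM with Scramble-sgRNA and 104 and 213 CPM with Cdx2-sgRNA, and in WENR-minus medium its guides overlapped (995 and 579.9 CPM against 489 and 1572 CPM). The 6 markers of stem cells and the crypt base summed to 92.2 to 193 CPM in WENR-minus and 326 to 546 CPM in WENR-plus medium. The part of these shifts in the changes of the ABC genes was not tested. In RNA from whole organoids, fewer cells of a type and less of a transcript per cell cannot be told apart.

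The genes on which most of the results turn lie in GRCm38 at chr5:8660077-8748575 (plus strand) for Abcb1a, chr5:8798147-8866315 (plus strand) for Abcb1b, chr19:43782192-43840740 (plus strand) for Abcc2, chr11:94343295-94392997 (minus strand) for Abcc3 and chr6:58584523-58695676 (plus strand) for Abcg2. A pair of P-glycoprotein genes is the first member set whose sequence bears on the values. Abcb1a and Abcb1b lie side by side on chromosome 5 of GRCm38, 49571 bases apart, and both encode the drug efflux pump P-glycoprotein. Their coding sequences of 3828 bases each were identical at 87.9% of 3842 aligned positions and share a run of 338 bases. Of the 31-base words of the Abcb1a transcript, 21.4% also occur in that of Abcb1b. The stretches below hold the codons of the first Walker A motif, in exon 12 of both transcripts. They are shown since the copies are alike over most of this stretch, and a read that covers none of the differences cannot be assigned to either. They were read from GENCODE M21 transcripts of GRCm38, plus strand, at chr5:8702174-8702278 for Abcb1a and chr5:8824494-8824598 for Abcb1b. Capitals mark the 4 of 105 bases at which the copies differ.
Abcb1a: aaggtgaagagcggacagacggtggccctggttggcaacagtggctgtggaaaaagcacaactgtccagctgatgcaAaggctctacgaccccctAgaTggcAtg
Abcb1b: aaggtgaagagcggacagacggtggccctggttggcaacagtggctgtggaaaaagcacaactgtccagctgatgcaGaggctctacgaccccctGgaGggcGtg

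Reads of the pair were nevertheless kept apart in most libraries. The library with the most Abcb1a reads, replicate 2 of distal Cdx2-sgRNA WENR-minus, held 24370 of them and 6 reads of Abcb1b. Outside the proximal Cdx2-sgRNA groups Abcb1b took 0.0121 to 0.156% of the reads of the pair in every library. In the 4 proximal Cdx2-sgRNA libraries it took 11.2 and 30.8% of them (WENR-minus) or 15.9 and 20.1% (WENR-plus).

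Promoters of 38 of the 50 members, with 45 start sites, were matched by symbol in the RefSeq table of GRCm38.p6. The 250 bases upstream of the start of Abcb1b (chr5:8797897-8798146, plus strand) and of the start of Abcg2 that the reads support (chr6:58640296-58640545, plus strand) are printed because they belong to efflux pumps that moved in opposite directions in proximal Cdx2-sgRNA organoids, and because the reads begin there. Transcripts that begin within 100 bases of these starts held 98.4% of Abcb1b reads and 98.0% of Abcg2 reads. Capitals mark CCAAT and GGGCGG on either strand (reverse ATTGG and CCGCCC), the usual cores of CCAAT boxes and of Sp1 sites, which do not overlap here.
Abcb1b: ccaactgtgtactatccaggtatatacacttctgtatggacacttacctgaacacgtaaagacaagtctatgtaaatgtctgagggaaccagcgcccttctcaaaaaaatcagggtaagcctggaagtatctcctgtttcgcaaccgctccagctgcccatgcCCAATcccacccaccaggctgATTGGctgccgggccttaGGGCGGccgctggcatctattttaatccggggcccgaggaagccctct
Abcg2: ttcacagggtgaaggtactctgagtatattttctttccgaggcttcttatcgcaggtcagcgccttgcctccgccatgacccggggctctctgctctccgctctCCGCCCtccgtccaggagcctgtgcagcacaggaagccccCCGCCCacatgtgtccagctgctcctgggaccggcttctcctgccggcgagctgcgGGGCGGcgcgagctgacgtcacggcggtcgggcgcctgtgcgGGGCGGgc

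The Abcb1b window held 2 matches to CCAAT and 1 to GGGCGG, and the Abcg2 window held 4 matches to GGGCGG and 0 to CCAAT. Over the same 250 bases of all 32851 promoters in the table, 33.8% held CCAAT and 32.7% held GGGCGG, and of the 45 windows of members 13 and 20 did. The letters TTTATG on either strand (reverse CATAAA), a core that Cdx proteins bind, were in 3 of the 45 windows (Abca1, Abca13 and Abcc12) and in 10.8% of all windows. A match is not a bound site, and a window without one says only that these letters are not there.

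Abcg5 and Abcg8 encode the subunits of a sterol exporter and start head to head on chromosome 17, 109 bases apart. The bases between their starts (chr17:84683012-84683120, RefSeq, GRCm38.p6, plus strand, reading towards Abcg8) are printed since both genes follow the same pattern over the groups, described further on. Capitals mark GATAA on either strand (reverse TTATC), the core of GATA factor sites.
Abcg5 to Abcg8: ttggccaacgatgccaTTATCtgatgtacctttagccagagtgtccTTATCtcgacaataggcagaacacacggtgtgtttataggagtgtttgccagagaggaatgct
It held 2 matches, and 9.36% of all promoters held at least 1 in the last 109 bases before the start.

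The ABC transcript pool was larger in WENR-minus medium, and its leading gene differed between groups. Abcb1a led in all 4 Scramble-sgRNA WENR-minus libraries, Abcc3 in both proximal Cdx2-sgRNA WENR-minus libraries, and Abcf1 in both proximal Scramble-sgRNA WENR-plus libraries. The 50 genes summed to 924 and 880.0 TPM in proximal Scramble-sgRNA organoids in WENR-minus medium and to 764 and 694 TPM in WENR-plus medium. In the distal Scramble-sgRNA groups the sums were 1032 and 981 and, in WENR-plus medium, 748 and 772 TPM. In the distal Cdx2-sgRNA groups they were 1181 and 1252 and 762 and 740.5 TPM. In the proximal Cdx2-sgRNA groups they were 1141 and 875 and 663 and 567 TPM. All 8 WENR-minus libraries lay above all 8 WENR-plus libraries.

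Abcb1a made up 25.0 and 25.5% of this pool in proximal Scramble-sgRNA WENR-minus libraries and 28.0 and 28.2% in distal ones. In proximal Cdx2-sgRNA WENR-minus libraries its share was 0.532 and 1.02%, and Abcc3 took 33.3 and 31.9% against 9.80 and 8.81% with Scramble-sgRNA. Subfamily G took 20.0 and 14.3% in distal and 3.07 and 2.37% in proximal Scramble-sgRNA WENR-minus libraries, of which Abcg2 alone was 18.2 and 13.9% and 2.97 and 1.71% of the pool. In each subfamily the member with the highest group mean was Abca3 (22.2 TPM, distal Cdx2-sgRNA WENR-minus), Abcb1a (323 TPM, the same group), Abcc3 (330.0 TPM, proximal Cdx2-sgRNA WENR-minus), Abcd3 (230.3 TPM, the same group as Abcc3), Abce1 (82.5 TPM, distal Cdx2-sgRNA WENR-plus), Abcf1 (130.00 TPM, distal Scramble-sgRNA WENR-plus) and Abcg2 (268 TPM, distal Cdx2-sgRNA WENR-minus).

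**Figure D1:**
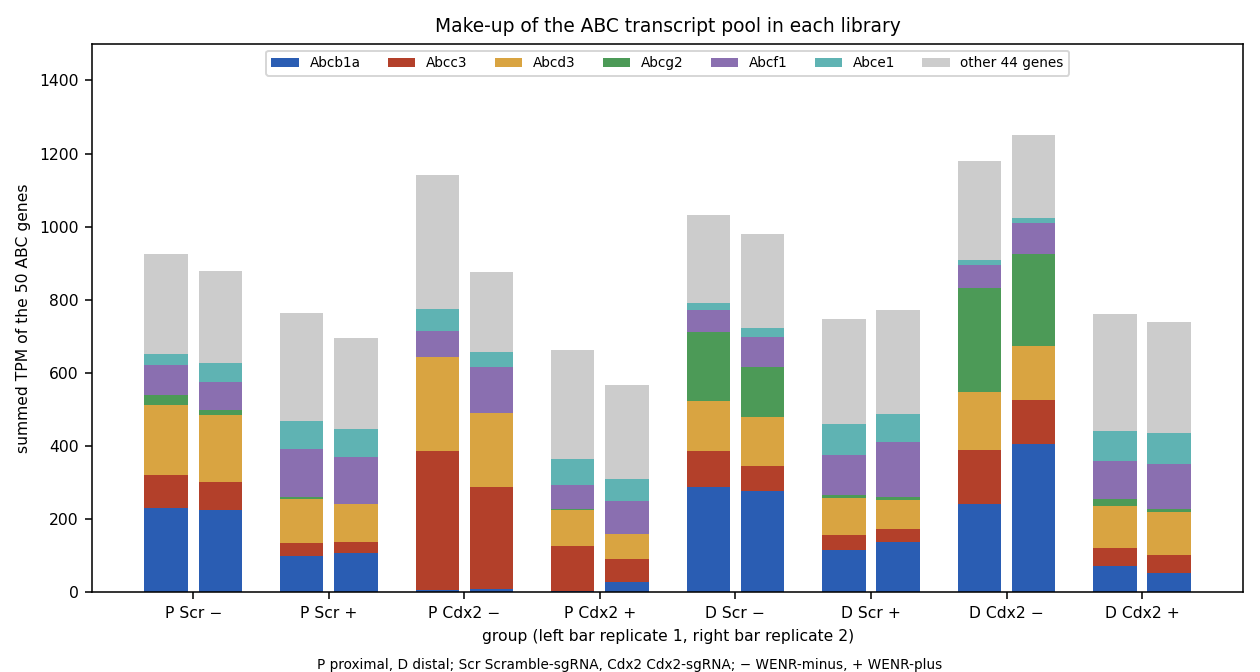
Summed TPM of the 50 ABC genes in each of the 16 libraries (vertical axis, TPM), with the left bar of each group for replicate 1 and the right bar for replicate 2, and colours for 6 genes and the other 44. Blue (Abcb1a) is nearly gone from the proximal Cdx2-sgRNA WENR-minus bars, red (Abcc3) is widest there, and green (Abcg2) stands out in the distal WENR-minus bars.

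Against medium, the question was which ABC genes differ after 3 days with or without the niche factors. All cultures began in WENR-plus medium, so that a gene called lower in WENR-plus was higher after withdrawal. In proximal Scramble-sgRNA organoids 8 of the 37 tested ABC genes (21.6%) were called lower in WENR-plus medium and 0 higher, where 17% of all 15289 genes tested were called. With each culture as a block, which takes same-numbered libraries of both media as 1 culture, 14 were called, 1 of them higher (Abcc9, 2.39, adjusted p = 0.0208). The share of all genes called in that fit is not given here. The median log2 fold change was -0.65 over the ABC genes and 0.06 over all genes. In distal Scramble-sgRNA organoids 10 were called lower and 3 higher (35.1%, against 26.4% of all genes), with medians of -0.74 and 0.11. In distal Cdx2-sgRNA organoids 9 were lower and 2 higher (29.7%, against 33.1%), with medians of -0.83 and 0.10. In proximal Cdx2-sgRNA organoids 3 were lower and 1 higher (10.8%, against 6.4%), with medians of 0.00 and 0.03. Without a block, the share called lay within 10 percentage points of the share of all genes in each of these comparisons.

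Against the guide, the question was which ABC genes differ between Cdx2-sgRNA and Scramble-sgRNA organoids of either region. In proximal organoids 13 were called in WENR-minus medium, 9 lower and 4 higher with Cdx2-sgRNA (35.1%, against 21.2% of all genes). In WENR-plus medium 11 were called, 6 lower and 5 higher (29.7%, against 15.9%), a count that fell to between 2 and 6 without any 1 of the 4 libraries. In distal organoids 1 was called in WENR-minus medium, Abca12, which was lower (2.70%, against 5.25%). In distal organoids in WENR-plus medium 0 were called by edgeR and 0 by DESeq2, where 0.262% of all genes were called, and 3 ABC genes had an unadjusted p under 0.05 in edgeR. The median log2 fold change of the ABC genes was -0.35, -0.31, 0.25 and 0.26 in these 4 comparisons, and that of all genes was between -0.05 and 0.00.

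Between regions, Scramble-sgRNA organoids differed in 3 ABC genes in WENR-minus medium, 1 higher and 2 lower in proximal organoids (8.11%, against 6.08% of all genes). In WENR-plus medium 0 were called by edgeR and 2 by DESeq2, 6 had an unadjusted p under 0.05 in edgeR, and 1.75% of all genes were called. With the replicate number as a block the counts were 6 and 3. The shares of all genes called with DESeq2 or with a block are not given here. The sources name 2 mice but do not say that a number marks the same mouse in every group, and the blocked values given here rest on that reading. Among Cdx2-sgRNA organoids 16 differed in WENR-minus medium, 5 higher and 11 lower in proximal organoids (43.2%, against 34.6%), and 10 in WENR-plus medium, 3 higher and 7 lower (27.0%, against 17%), with 5 to 7 left without any 1 library. Each group enters 3 of these 12 comparisons, so that comparisons share libraries. Of the 37 tested genes 29 were called in at least 1 of the 12 and 8 in none.

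**Figure D2:**
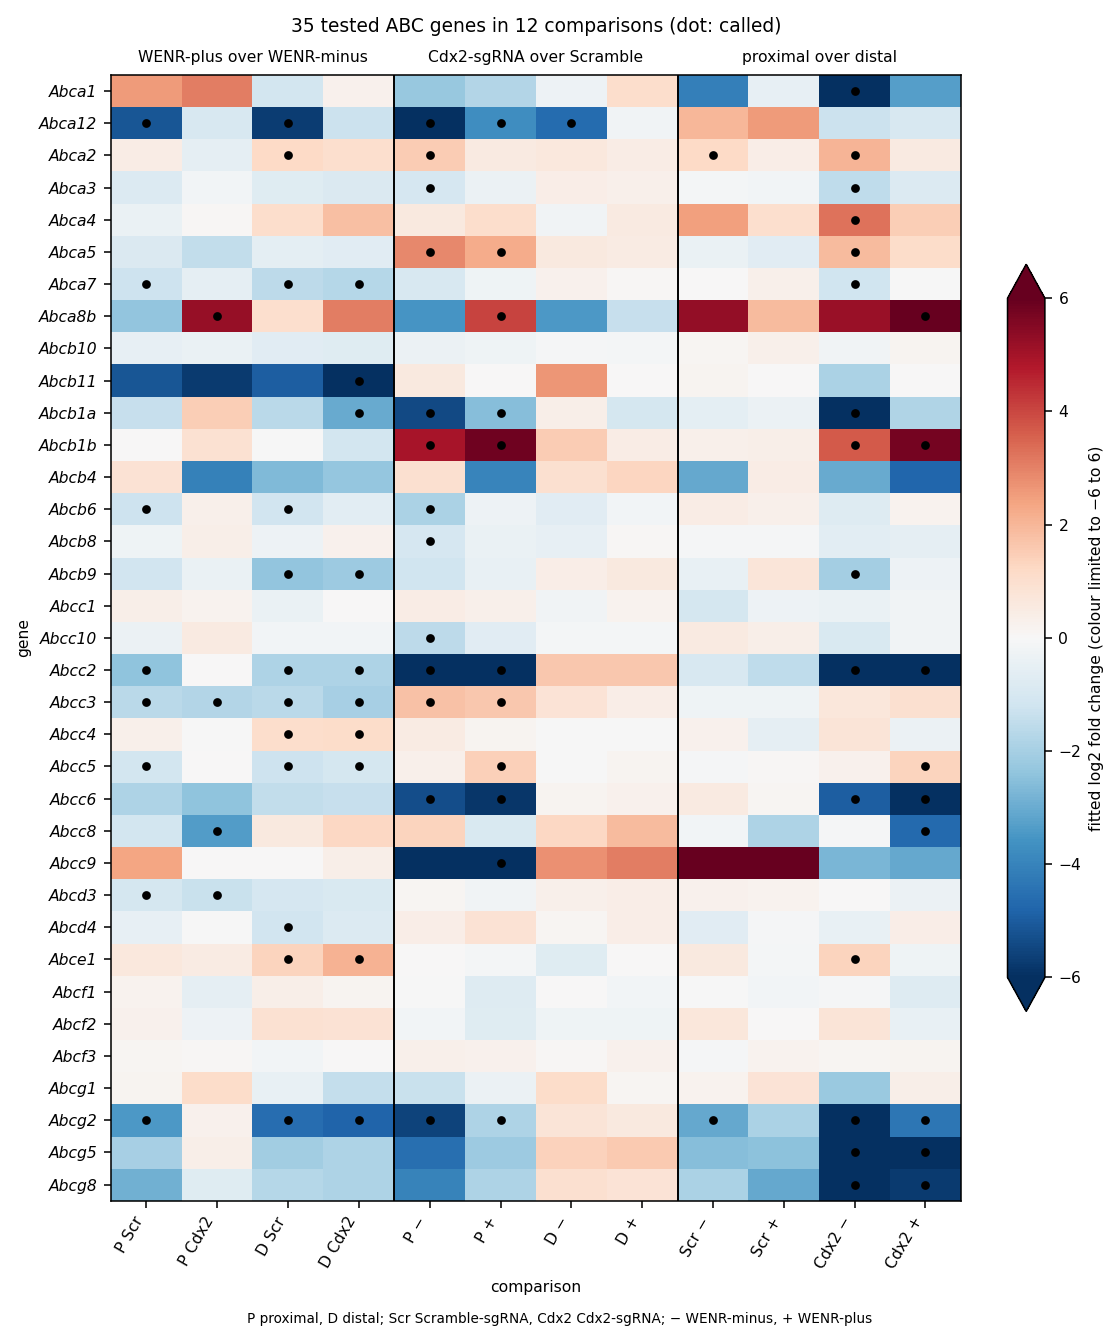
Fitted log2 fold changes (colour, limited to the range -6 to 6) of 35 tested ABC genes (rows) in 12 comparisons (columns), with a dot where the gene was called. Values of genes that are at or near 0 reads in a group depend on the prior count of the fit. The dots are most frequent in the proximal Cdx2-sgRNA over distal Cdx2-sgRNA column in WENR-minus medium (15 genes) and absent from the distal guide and the Scramble-sgRNA region columns in WENR-plus medium.

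Subfamily B was led by Abcb1a, the P-glycoprotein gene of intestinal epithelium. With Scramble-sgRNA it read 914 and 788 CPM in proximal organoids in WENR-minus medium and 297 and 354 CPM in WENR-plus medium. With Cdx2-sgRNA the proximal values were 11.1 and 28.9 CPM in WENR-minus and 10.2 and 101 CPM in WENR-plus medium. The proximal Cdx2-sgRNA libraries thus lay below all other libraries in the series. Distal organoids read 1335 and 1185 CPM with Scramble-sgRNA and 1135 and 2038 CPM with Cdx2-sgRNA in WENR-minus medium, and 385 and 439.6 and 226 and 169 CPM in WENR-plus medium.

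Abcb1a was lower with Cdx2-sgRNA in proximal organoids in WENR-minus medium (log2 fold change -5.40, SE 0.88, adjusted p = 0.000893) and in WENR-plus medium (log2 fold change -2.55, SE 0.77, adjusted p = 0.0327). The second value rests on 2 unlike libraries: without replicate 2 of the proximal Cdx2-sgRNA WENR-plus group it was -5.00, and the call was lost without either Scramble-sgRNA WENR-plus library (adjusted p = 0.09 and 0.12). In distal organoids in WENR-minus medium it differed by 0.33 on the log2 scale (SE 0.72, adjusted p = 0.821). The difference between the regional effects was called in WENR-minus medium (log2 fold change -5.73, SE 1.102, adjusted p = 0.00538). With the replicate block Abcb1a was also lower in proximal than in distal Cdx2-sgRNA WENR-plus organoids (-2.1, adjusted p = 0.0483). With each culture as a block its medium effect differed between the guides in proximal organoids (2.34, adjusted p = 0.0248). WENR-plus medium lowered Abcb1a in distal Cdx2-sgRNA organoids (log2 fold change -3.01, SE 0.78, adjusted p = 0.00785), a call that was lost without replicate 2 of the WENR-plus group (-2.85, adjusted p = 0.065). In Scramble-sgRNA organoids the change with medium was -1.39 for proximal (adjusted p = 0.183) and -1.61 for distal cultures (adjusted p = 0.105), and both passed the test with each culture as a block (adjusted p = 0.017 and 0.00643).

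Abcb1b showed the reverse pattern. It held 5 and 3 reads in proximal Scramble-sgRNA WENR-minus and 6 and 3 in WENR-plus libraries, and 2 to 7 reads in every distal library. In proximal Cdx2-sgRNA libraries it held 19 and 244 reads without the WENR factors and 33 and 481 with them, which is 1.41 and 12.9 and 1.91 and 25.4 CPM. Replicate 2 lay far above replicate 1 in both media. The gene was called higher with Cdx2-sgRNA in WENR-minus (log2 fold change 4.93, SE 1.26, adjusted p = 0.0123) and WENR-plus medium (log2 fold change 5.82, SE 1.28, adjusted p = 0.00751). Without replicate 2 of the Cdx2-sgRNA group these values were 2.57 and 2.99 and neither was called (adjusted p = 0.16 and 0.076), and leaving out either Scramble-sgRNA library also ended both calls (adjusted p 0.06 to 0.089). In TPM, Abcb1b reached 2.98 and 4.93 against 7.497 and 16.3 for Abcb1a in the same groups, and Abcb1a alone was at 228 TPM in proximal Scramble-sgRNA WENR-minus organoids.

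Among the dimeric transporters of subfamily B, Abcb6 and Abcb9 were called in 3 of the 12 comparisons each. Abcb6, a dimeric transporter linked to porphyrins, read 42.4 and 24.6 CPM in proximal Scramble-sgRNA WENR-minus organoids, 15.2 and 12.7 CPM in WENR-plus medium and 11.1 and 7.09 CPM with Cdx2-sgRNA. It was called lower with Cdx2-sgRNA in WENR-minus medium (-1.88) and in WENR-plus medium in both Scramble-sgRNA groups (-1.26 proximal, -1.15 distal), where leaving out replicate 1 of the WENR-minus group (-0.83 and -1.04) or replicate 2 of the WENR-plus group (-1.18 and -1.09) ended the call. Of the mitochondrial transporter genes Abcb6, Abcb8 and Abcb10 none was called higher in any of the 12 comparisons. Abcb8 was called lower in proximal Cdx2-sgRNA WENR-minus organoids by a value at the threshold (-1.01), which fell to -0.97 with RLE size factors and was then not called. Abcb10 read 35.4 ± 1.28 CPM (SD, n = 2) in proximal and 33.01 ± 2.39 CPM in distal Scramble-sgRNA WENR-minus organoids, and was not called in any comparison.

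The remaining members of subfamily B were expressed at low levels. Abcb9, a lysosomal peptide transporter, read 5.54 and 2.94 CPM in distal Scramble-sgRNA WENR-minus and 0.951 and 0.699 CPM in WENR-plus organoids (log2 fold change -2.35, SE 0.47, adjusted p = 0.00233). With Cdx2-sgRNA the distal values were 3.98 and 7.11 and 1.09 and 1.38 CPM (-2.16). In proximal organoids it read 3.53 and 2.61 CPM with Scramble-sgRNA and 1.71 and 1.00 CPM with Cdx2-sgRNA in WENR-minus medium, and 1.39 and 1.36 and 1.22 and 0.793 CPM in WENR-plus medium. Among Cdx2-sgRNA organoids in WENR-minus medium it was called lower in proximal than in distal organoids (-2.04). With each culture as a block Abcb9 was also lower in WENR-plus medium in proximal Scramble-sgRNA organoids (-1.15, adjusted p = 0.0239). In WENR-minus medium the proximal Cdx2-sgRNA libraries lay below all 4 distal ones, the Scramble-sgRNA regions overlapped, and in WENR-plus medium proximal and distal libraries overlapped.

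Abcb11, the bile salt export pump of hepatocytes, held 0 reads in all 8 WENR-plus libraries. In WENR-minus medium it held 5 and 4 reads in proximal Scramble-sgRNA, 8 and 4 in proximal Cdx2-sgRNA, 5 and 1 in distal Scramble-sgRNA and 24 and 11 in distal Cdx2-sgRNA libraries. Without a block the distal Cdx2-sgRNA group was the one in which edgeR called it, with a level in WENR-minus medium that was at least 8.92-fold higher when WENR-plus is set at 3 reads per library (adjusted p = 0.0053). With the replicate block it was also called in the other 3 groups (adjusted p = 0.0317 and 0.039 in proximal Scramble-sgRNA and Cdx2-sgRNA and 0.0355 in distal Scramble-sgRNA organoids). Abcb4, which moves phosphatidylcholine into bile, held at most 13 reads in any library and was not called.

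**Figure D3:**
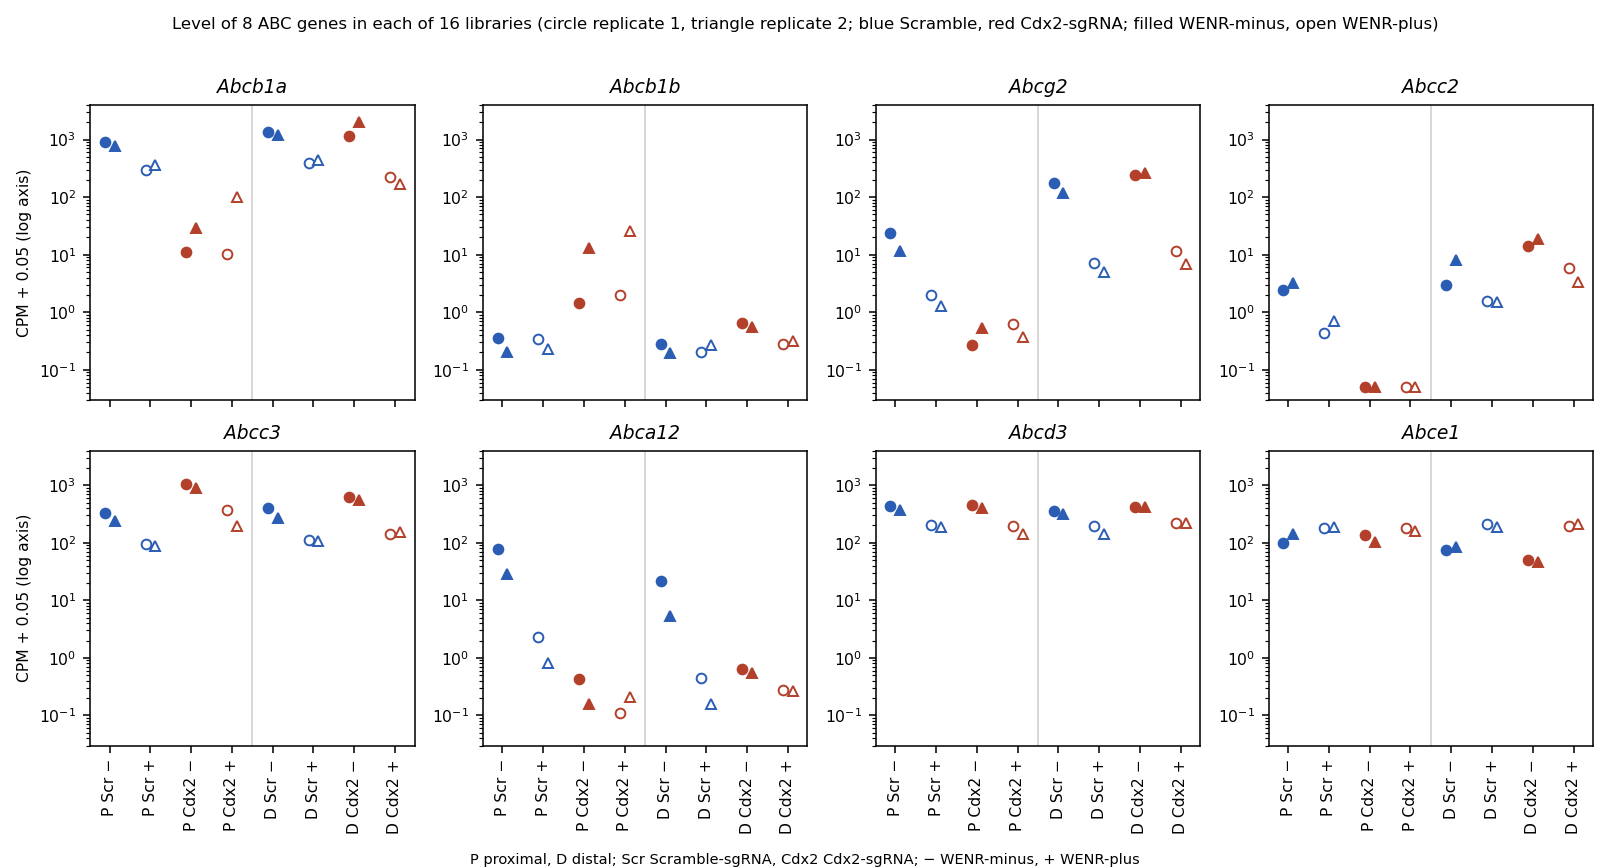
Level of 8 ABC genes (CPM plus 0.05, log axis) in each of the 16 libraries by group, with circles for replicate 1 and triangles for replicate 2, blue for Scramble-sgRNA, red for Cdx2-sgRNA, filled for WENR-minus and open for WENR-plus. Abcb1a falls and Abcb1b rises in the proximal Cdx2-sgRNA libraries, Abcc2 lies at 0 in all 4 of them, and Abcc3, Abcg2 and Abca12 are higher in filled than in open symbols of the Scramble-sgRNA groups.

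Subfamily C was led by Abcc3, a basolateral pump for conjugates and bile salts. Its level was 328 and 241 CPM in proximal Scramble-sgRNA WENR-minus and 1042 and 879 CPM in Cdx2-sgRNA WENR-minus organoids. In WENR-plus medium these groups read 96.0 and 87.4 and 370.3 and 192 CPM. Distal organoids read 401 and 272 CPM with Scramble-sgRNA and 631 and 552 CPM with Cdx2-sgRNA in WENR-minus medium, and 110.5 and 109 and 141 and 152 CPM in WENR-plus medium. Abcc3 was the only member that edgeR called without a block in all 4 medium comparisons, with log2 fold changes of -1.63, -1.77, -1.62 and -2.01 for proximal Scramble, proximal Cdx2, distal Scramble and distal Cdx2 organoids (largest adjusted p = 0.00404). It was called higher with Cdx2-sgRNA in proximal organoids in WENR-minus (log2 fold change 1.76, SE 0.29, adjusted p = 0.00091) and WENR-plus medium (log2 fold change 1.62, SE 0.29, adjusted p = 0.00232). These 6 calls held in every fit that left out 1 library.

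Abcc2, a luminal pump for glucuronide and glutathione conjugates, was not detected in proximal Cdx2-sgRNA organoids. It held 0 reads in all 4 of these libraries, against 38 and 62 reads in Scramble-sgRNA WENR-minus and 8 and 11 in WENR-plus libraries. A count of 0 allows up to 3 reads per library, so that it was at least 14.7-fold lower without the factors (adjusted p = 0.000327) and 3.11-fold or more lower with them (adjusted p = 0.00615). In distal organoids it read 2.92 and 7.88 CPM with Scramble-sgRNA and 14.3 and 18.5 CPM with Cdx2-sgRNA in WENR-minus medium, and 1.502 and 1.45 and 5.79 and 3.33 CPM in WENR-plus medium. The distal Cdx2-sgRNA libraries lay above the Scramble-sgRNA libraries in both media, but the difference was not called by edgeR in WENR-minus (log2 fold change 1.60, SE 0.49, adjusted p = 0.0711) or WENR-plus medium (adjusted p = 0.449). Set against the distal Cdx2-sgRNA organoids, the proximal ones were at least 86.0-fold lower in the first medium and at least 27.4-fold lower in the second.

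The regional difference in the guide's effect on Abcc2 was called in both media (adjusted p = 0.00063 in WENR-minus and 0.00921 in WENR-plus). Abcc2 was lower in WENR-plus medium in proximal Scramble-sgRNA (log2 fold change -2.44, SE 0.55, adjusted p = 0.0104), distal Scramble-sgRNA (-1.87) and distal Cdx2-sgRNA organoids (-1.84). Each of these 3 calls was lost without 1 or more single libraries. Without replicate 2 of the distal Scramble-sgRNA WENR-minus group the value was -0.98, and with length-scaled counts it was -1.08 (adjusted p = 0.23).

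Abcc6, a transporter of liver and kidney linked to mineral balance, was low throughout. It held 28 and 26 reads in proximal Scramble-sgRNA WENR-minus and 10 and 6 in WENR-plus libraries, and 1 and 0 and 0 and 0 in the Cdx2-sgRNA counterparts. The ratio was 49.5-fold (95% exact interval 8.51 to 1991) in WENR-minus medium (adjusted p = 0.00367), and in WENR-plus medium the level was at least 2.50-fold lower (adjusted p = 0.0129), a call lost without either Cdx2-sgRNA library or Scramble-sgRNA replicate 1 (adjusted p 0.053 to 0.069). Intervals of this kind cover counting error only. With each culture as a block Abcc6 was lower in WENR-plus medium in proximal Scramble-sgRNA organoids (-1.87, adjusted p = 0.039). In distal libraries it read 1.08 and 1.07 CPM with Scramble-sgRNA and 0.508 and 1.92 CPM with Cdx2-sgRNA in WENR-minus medium, and 0.501 and 0.269 CPM and 0.344 and 0.582 CPM in WENR-plus medium, and the guides overlapped in both media.

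Other multidrug resistance proteins changed less. Abcc5, an exporter of cyclic nucleotides and of haem, was called lower in WENR-plus medium in the proximal Scramble-sgRNA (-1.098), distal Scramble-sgRNA (-1.24) and distal Cdx2-sgRNA groups (-1.08), and higher with Cdx2-sgRNA in proximal WENR-plus organoids (1.44). Every one of these calls was lost in at least 3 of the fits that left out 1 library. Abcc4, which exports cyclic nucleotides and prostaglandins, was higher in WENR-plus medium in distal Scramble-sgRNA (58.9 and 64.0 CPM in WENR-minus, 128 and 131 in WENR-plus, log2 fold change 1.08, SE 0.25, adjusted p = 0.00558) and distal Cdx2-sgRNA organoids (1.102), with values of 0.97 to 1.17 in fits without 1 library, 3 of which lay at or under the threshold. Abcc10, a broad drug pump, was called lower in proximal Cdx2-sgRNA WENR-minus organoids (-1.58), a call lost without replicate 1 of either group (adjusted p = 0.087 and 0.067). Abcc1, the first multidrug resistance protein described, read 83.7 ± 13.8 CPM (SD, n = 2) in proximal and 174 ± 32.9 CPM in distal Scramble-sgRNA WENR-minus organoids and was not called (-1.05, adjusted p = 0.0681), but was with the replicate block (-1.09, adjusted p = 0.0428).

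The sulfonylurea receptors differed between replicates. Abcc9 was read in proximal Scramble-sgRNA organoids, with 25 and 2 reads in WENR-minus medium against 163 and 11 in WENR-plus. In proximal Cdx2-sgRNA libraries it held 0 reads, and at most 1 in any distal library. Most of the reads lay in replicate 1 in both media. The gene was called lower with Cdx2-sgRNA in WENR-plus medium (adjusted p = 0.0292). The bound from the Scramble-sgRNA mean was 25.4-fold, but replicate 1 sets this mean (7.79 against 0.651 CPM), and replicate 2 alone supports less. The call was lost without Scramble-sgRNA replicate 1 and without either Cdx2-sgRNA library. With the replicate block Abcc9 was also called lower with Cdx2-sgRNA in WENR-minus medium (adjusted p = 0.0177), and higher in proximal than distal Scramble-sgRNA organoids in both media (adjusted p = 0.0426 and 0.0222).

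Abcc8, whose product pairs with the potassium channel of beta cells, read 0.929 and 2.19 CPM in proximal Scramble-sgRNA WENR-minus and 0.143 and 1.36 CPM in WENR-plus organoids. With Cdx2-sgRNA the proximal values were 3.71 and 4.23 and 0.232 and 0.529 CPM. Distal organoids read 1.77 and 1.72 and 2.80 and 2.47 CPM with Scramble-sgRNA, and 1.86 and 6.44 and 4.87 and 14.9 CPM with Cdx2-sgRNA. The group mean was thus lowest in the proximal and highest in the distal Cdx2-sgRNA WENR-plus group, and these groups differed (log2 fold change -4.66, SE 0.97, adjusted p = 0.00506). Abcc8 was called lower in WENR-plus medium in proximal Cdx2-sgRNA organoids (log2 fold change -3.35, SE 0.95, adjusted p = 0.0393). It was not called with length-scaled counts (-1.55, adjusted p = 0.19), with reads of protein-coding transcripts alone (adjusted p = 0.08) or in any of 4 fits without 1 library. With each culture as a block it was higher in WENR-plus medium in distal Cdx2-sgRNA organoids (1.29, adjusted p = 0.01345).

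Subfamily G was led by Abcg2, the breast cancer resistance protein, which exports drugs, urate and porphyrins. In WENR-minus medium it read 23.9 and 11.3 CPM in proximal and 176 and 118 CPM in distal Scramble-sgRNA organoids, and 0.223 and 0.476 and 243 and 266 CPM in the Cdx2-sgRNA groups. In WENR-plus medium it read 1.96 and 1.24 and 7.26 and 5.00 CPM with Scramble-sgRNA and 0.58 and 0.317 and 11.7 and 6.82 CPM with Cdx2-sgRNA. Abcg2 was called in 8 of the 12 comparisons, more than any other member. Among Scramble-sgRNA organoids the proximal ones had less of it in WENR-minus medium (log2 fold change -3.06, SE 0.40, adjusted p = 0.00124), and in WENR-plus medium the difference of -1.92 was not called (adjusted p = 0.0522), but was with the replicate block (-1.93, adjusted p = 0.0107).

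Abcg2 was lower in WENR-plus medium in distal Scramble-sgRNA (log2 fold change -4.58, SE 0.43, adjusted p = 3.97e-05), distal Cdx2-sgRNA (-4.78) and proximal Scramble-sgRNA organoids (-3.44). In proximal Cdx2-sgRNA organoids the change was 0.27 (adjusted p = 0.878). The guide lowered it in proximal organoids in WENR-minus medium (log2 fold change -5.55, SE 0.55, adjusted p = 3.45e-05). In proximal WENR-plus organoids the guide's change was -1.85 (adjusted p = 0.0416), a call lost with length-scaled counts (adjusted p = 0.19) and without any 1 of the 4 libraries. In distal WENR-minus organoids it was 0.79 (adjusted p = 0.197). The difference of the regional effects was called in WENR-minus medium (log2 fold change -6.35, SE 0.67, adjusted p = 0.000131). With Cdx2-sgRNA the log2 fold change of proximal over distal organoids was -9.41 (WENR-minus) and -4.36 (WENR-plus).

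Abcg5 and Abcg8 were read mainly in distal organoids, but among Scramble-sgRNA organoids this rests on replicate 1. In WENR-minus medium Abcg8 read 0.434 and 2.87 CPM in proximal and 10.2 and 2.22 CPM in distal Scramble-sgRNA organoids. With Cdx2-sgRNA it read 0.223 and 0 and 17.0 and 6.86 CPM. In WENR-plus medium these values were 0 and 0.473 and 3.35 and 0.430 CPM with Scramble-sgRNA, and 0.058 and 0.0529 and 4.64 and 2.06 CPM with Cdx2-sgRNA. In WENR-minus medium Abcg5 read 16.1 and 3.15 CPM with Scramble-sgRNA and 32.2 and 17.3 CPM with Cdx2-sgRNA in distal organoids. In proximal organoids it read 0.248 and 2.92 CPM with Scramble-sgRNA and held 2 and 0 reads with Cdx2-sgRNA. In WENR-plus medium the distal values were 4.21 and 0.323 and 9.69 and 4.02 CPM, and proximal libraries held 6 and 9 reads with Scramble-sgRNA and 2 and 1 with Cdx2-sgRNA. Replicate 1 was the higher in all 4 distal groups, and replicate 2 in both proximal Scramble-sgRNA groups. Gata4, a GATA factor gene on the list of small intestine markers, had the same higher replicate in each of these 6 groups. Same-numbered libraries of the 2 media correlated, so that these are not 6 separate agreements. It read 15.9 and 1.72 CPM with Scramble-sgRNA and 8.21 and 0.586 CPM with Cdx2-sgRNA in distal WENR-minus organoids, and 8.81 and 0.323 CPM and 3.84 and 0.0529 CPM in WENR-plus medium. The proximal Scramble-sgRNA libraries held 5.89 and 8.18 CPM without and 3.06 and 4.14 CPM with the niche factors, and Gata4 was at most 0.116 CPM in the proximal Cdx2-sgRNA libraries. With the guide the levels did not move together: in distal organoids of either medium, Gata4 was lower and Abcg5 higher with Cdx2-sgRNA in both replicate numbers. The part of Gata4 in the levels of Abcg5 and Abcg8 was not tested.

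Between the Cdx2-sgRNA groups Abcg5 was lower in proximal organoids by 400.4-fold (95% exact interval 110.4 to 3314) in WENR-minus (adjusted p = 0.00205) and by 81.2-fold (95% exact interval 27.5 to 397) in WENR-plus medium (adjusted p = 0.0149). The ratios of Abcg8 were 128-fold (95% exact interval 43.5 to 627) (adjusted p = 0.00611) and 59.7-fold (95% exact interval 16.2 to 498) (adjusted p = 0.0301). Both WENR-plus calls were lost without either proximal Cdx2-sgRNA library and without distal replicate 1 (adjusted p 0.063 to 0.14), and the WENR-minus call of Abcg8 without proximal Cdx2-sgRNA replicate 2. Neither gene was called by edgeR between the guides or between the Scramble-sgRNA regions, and DESeq2 called both lower with Cdx2-sgRNA in proximal WENR-minus organoids (adjusted p = 0.0125 for Abcg5 and 0.0325 for Abcg8). For the medium edgeR called neither, but with each culture as a block both were lower in WENR-plus medium in distal Scramble-sgRNA (-2.32 for Abcg5, -1.86 for Abcg8) and distal Cdx2-sgRNA organoids (-1.91 and -1.81), and Abcg8 in proximal Scramble-sgRNA organoids (-2.90). The spans of the genes in the annotation overlap on opposite strands, and the libraries were made with a stranded kit. Abcg1, a cholesterol exporter of macrophages, stayed between 0 and 1.44 CPM and was not called.

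The sterol and phospholipid exporters as a list (Abca1, Abca7, Abcg1, Abcg4, Abcg5, Abcg8 and Abcb4, 6 of 7 tested) held 4 called genes between the Cdx2-sgRNA regions in WENR-minus medium, all lower in proximal organoids, and 2 in WENR-plus medium, where 34.6 and 17% of all genes were called. Across medium 1 of the 6, Abca7, was called lower by edgeR in WENR-plus in each of 3 groups (proximal Scramble-sgRNA and both distal groups, where 17, 26.4 and 33.1% of all genes were called), and Abcg5 and Abcg8 joined it with the culture block, as given above. Among the 8 drug and conjugate pumps (Abcb1a, Abcb1b, Abcc1 to Abcc5 and Abcg2), 2 were higher and 3 lower with Cdx2-sgRNA in proximal WENR-minus organoids, and 3 were higher and 3 lower in WENR-plus medium, against 21.2 and 15.9% of all genes called. In distal organoids 0 of the 8 were called for the guide by edgeR in either medium, where 5.25 and 0.262% of all genes were, and DESeq2 called Abcc2 in WENR-minus medium (1.62, adjusted p = 0.027).

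In subfamily A, Abca12, which loads lipids into the lamellar granules of skin, read 77.7 and 29.0 CPM in proximal and 21.7 and 5.38 CPM in distal Scramble-sgRNA WENR-minus organoids. In WENR-plus medium these groups read 2.25 and 0.769 and 0.401 and 0.107 CPM. All 8 Cdx2-sgRNA libraries lay at or under 0.592 CPM, with 0.371 and 0.106 and 0.592 and 0.502 CPM in WENR-minus and 0.058 and 0.159 and 0.229 and 0.212 CPM in WENR-plus medium for proximal and distal organoids. It was called lower with Cdx2-sgRNA in proximal (log2 fold change -7.86, SE 0.98, adjusted p = 0.000163) and in distal WENR-minus organoids (log2 fold change -4.61, SE 0.87, adjusted p = 0.0104). It was the single member that edgeR called for the guide in distal organoids, and that call was lost without either distal Cdx2-sgRNA library (adjusted p = 0.065 and 0.088). In proximal WENR-plus organoids the ratio was 14.3-fold (95% exact interval 5.32 to 54.3) (adjusted p = 0.0268), and 3 of 4 fits without 1 library lost it. The medium change was -5.12 in proximal and -5.67 in distal Scramble-sgRNA organoids, called in every fit without 1 library. Between the Scramble-sgRNA regions it was not called, but was higher in proximal organoids with the replicate block (2.09 and 2.53, adjusted p = 0.00745 and 0.0387 in WENR-minus and WENR-plus).

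Abca3, which loads surfactant lipids in the lung and led subfamily A in TPM, read 97.5 and 86.1 CPM in proximal and 106 and 91.5 CPM in distal Scramble-sgRNA WENR-minus organoids, and 56.7 and 34.8 and 139.6 and 123 CPM with Cdx2-sgRNA. In WENR-plus medium it read 55.3 and 48.6 and 62.8 and 55.0 CPM with Scramble-sgRNA and 43.8 and 38.8 and 82.3 and 62.3 CPM with Cdx2-sgRNA. The proximal Cdx2-sgRNA WENR-minus libraries lay below the other WENR-minus libraries. The guide's change in proximal WENR-minus organoids was at the threshold (log2 fold change -1.01, SE 0.22, adjusted p = 0.00544) and fell under it with RLE size factors (-0.96). The difference of the regional effects was called in WENR-minus medium (log2 fold change -1.42, SE 0.31, adjusted p = 0.0104), but not without replicate 2 of distal Scramble-sgRNA (adjusted p = 0.052).

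Abca2, a lysosomal lipid transporter, ran against Abca3 for the guide in proximal organoids. In distal WENR-minus organoids both genes read higher with Cdx2-sgRNA. Abca2 read 11.1 and 14.1 CPM with Scramble-sgRNA and 40.5 and 30.99 CPM with Cdx2-sgRNA in proximal WENR-minus organoids (log2 fold change 1.502, SE 0.24, adjusted p = 0.00083). Distal organoids read 4.62 and 6.52 and 7.95 and 9.28 CPM, and the proximal Scramble-sgRNA level was called above the distal one (log2 fold change 1.18, SE 0.25, adjusted p = 0.0138), a call lost without replicate 1 of the distal or replicate 2 of the proximal group (0.95 and 0.99). In WENR-plus medium proximal organoids read 14.4 and 19.8 and 28.1 and 21.7 CPM and distal ones 12.4 and 13.2 and 15.99 and 18.4 CPM. The rise with WENR-plus in distal Scramble-sgRNA organoids was called (log2 fold change 1.20, SE 0.25, adjusted p = 0.00276), though not with length-scaled counts (0.88) or without replicate 1 of the WENR-minus group (0.97).

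The next members of subfamily A were called in 1 to 4 of the 12 comparisons. Abca7, which moves phospholipids, read 46.3 and 42.8 CPM in proximal and 45.5 and 41.4 CPM in distal Scramble-sgRNA WENR-minus organoids, and with Cdx2-sgRNA 26.0 and 19.1 CPM in proximal and 50.7 and 52.8 CPM in distal organoids. In WENR-plus medium proximal organoids held 16.5 and 20.7 CPM with Scramble-sgRNA and 19.02 and 11.8 CPM with Cdx2-sgRNA, and distal organoids 15.6 and 14.1 CPM and 17.3 and 14.2 CPM. It was lower in WENR-plus medium in proximal Scramble-sgRNA (-1.26), distal Scramble-sgRNA (-1.55) and distal Cdx2-sgRNA organoids (-1.71), in every fit without 1 library. Abca5, a lysosomal protein, was called higher with Cdx2-sgRNA in proximal WENR-minus (2.87) and WENR-plus organoids (2.24). With each culture as a block it was lower in WENR-plus medium in proximal Cdx2-sgRNA organoids (-1.38, adjusted p = 0.00402). Its Cdx2-sgRNA libraries read 5.196 and 25.4 and 2.32 and 8.67 CPM, with replicate 2 the higher, and without replicate 2 the values were 1.30 and 1.00 and not called. Abca4, the retinal flippase, and Abca1, the cholesterol exporter, were called between the Cdx2-sgRNA regions in WENR-minus medium. Abca4 held 16 and 25 reads in proximal and 2 and 1 in distal libraries, and Abca1 0 and 0 and 10 and 2. Both calls were lost with length-scaled counts (adjusted p = 0.31 and 0.053).

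The calls of Abca8b by edgeR without a block rested on 1 library. It held 9 and 380 reads in proximal Cdx2-sgRNA WENR-plus libraries, 1 and 8 in WENR-minus, and 38 and 75 and 13 and 10 in Scramble-sgRNA WENR-minus and WENR-plus libraries. Distal libraries held 2 and 0 and 3 and 3 reads with Scramble-sgRNA and 0 and 0 and 0 and 2 with Cdx2-sgRNA. It was called higher in proximal Cdx2-sgRNA WENR-plus organoids against their WENR-minus (5.25) and Scramble-sgRNA counterparts (4.07), and against distal Cdx2-sgRNA organoids, with a ratio of 196-fold (95% exact interval 53.8 to 1620.0). Without replicate 2 of that group the values were 0.97, -0.21 and 3.09 on the log2 scale and none was called. The replicate block ended the second call (3.34, adjusted p = 0.079). Other settings made calls between groups without that library. With the culture block Abca8b was lower in WENR-plus medium in proximal Scramble-sgRNA organoids (-2.31, adjusted p = 0.00841). DESeq2 called it lower with Cdx2-sgRNA in proximal WENR-minus organoids (-3.57, adjusted p = 0.0437). It also called it higher in proximal than in distal Scramble-sgRNA WENR-minus organoids (5.31, adjusted p = 0.0146).

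Subfamily D was led by Abcd3, a peroxisomal membrane protein that imports acyl chains for oxidation. It read 431 and 373 CPM in proximal Scramble-sgRNA and 460.3 and 399.6 CPM in proximal Cdx2-sgRNA organoids in WENR-minus medium, and 203 and 187 and 195 and 144 CPM in WENR-plus medium. Distal organoids read 357 and 318 and 425 and 411 CPM in WENR-minus and 193 and 145 and 216 and 223 CPM in WENR-plus medium. All 8 WENR-minus libraries lay above all 8 WENR-plus libraries. The change was called in proximal Scramble-sgRNA (log2 fold change -1.04, SE 0.18, adjusted p = 0.00185) and proximal Cdx2-sgRNA organoids (log2 fold change -1.34, SE 0.18, adjusted p = 0.00179), and lay at the fold threshold in distal Scramble-sgRNA (adjusted p = 0.00121, called at -1.01 with the replicate block) and distal Cdx2-sgRNA organoids (-0.93, adjusted p = 0.00134). Without replicate 1 of the WENR-minus group the value in proximal Scramble-sgRNA organoids was -0.95 and not called. Abcd3 was called neither for the guide nor for the region. Abcd4, which serves vitamin B12 export from lysosomes, was called lower in WENR-plus medium in distal Scramble-sgRNA organoids (-1.13), and not without replicate 2 of the WENR-plus group (-0.96).

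Of subfamilies E and F, Abce1, which recycles ribosomes after termination, was the one member called. It read 75.7 and 83.0 CPM in distal Scramble-sgRNA WENR-minus and 214 and 187 CPM in WENR-plus organoids (log2 fold change 1.34, SE 0.19, adjusted p = 0.000318). With Cdx2-sgRNA the distal values were 49.2 and 45.8 and 193 and 215 CPM (log2 fold change 2.10, SE 0.20, adjusted p = 1.4e-05). Proximal organoids read 97.8 and 139 and 178 and 187 CPM with Scramble-sgRNA (0.62, adjusted p = 0.029) and 138 and 102 and 181 and 157 CPM with Cdx2-sgRNA. All 8 WENR-plus libraries lay above all 8 WENR-minus libraries. Among Cdx2-sgRNA organoids in WENR-minus medium Abce1 was higher in proximal ones (1.34).

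Abcf1, which takes part in translation initiation, read 69.9 and 70.9 CPM in proximal Scramble-sgRNA WENR-minus and 82.4 and 80.0 CPM in WENR-plus organoids, and 61.4 and 77.5 and 43.1 and 52.4 CPM with Cdx2-sgRNA. Distal organoids read 65.0 and 78.5 and 86.8 and 97.0 CPM with Scramble-sgRNA, and 66.3 and 79.8 and 80.4 and 84.1 CPM with Cdx2-sgRNA. The proximal Cdx2-sgRNA WENR-plus libraries were the lowest of the series, at a log2 fold change of -0.77 against Scramble-sgRNA (adjusted p = 0.00592), which is under the fold threshold. Abcf2 read 29.9 and 29.2 CPM in distal Scramble-sgRNA WENR-minus and 58.7 and 50.9 CPM in WENR-plus organoids (log2 fold change 0.89, SE 0.15, adjusted p = 0.00072), and with Cdx2-sgRNA 26.2 and 22.5 CPM in WENR-minus and 41.6 and 48.7 CPM in WENR-plus medium (0.89). These changes too were under the fold threshold, although the media did not overlap. In proximal Scramble-sgRNA organoids Abcf2 read 42.9 and 51.1 CPM in WENR-minus and 57.5 and 53.5 CPM in WENR-plus medium. With Cdx2-sgRNA the proximal values ran the other way, at 38.9 and 44.4 CPM in WENR-minus and 32.5 and 34.4 CPM in WENR-plus medium. Abcf1, Abcf2 and Abcf3 were called in none of the 12 comparisons. Abcf3 stayed between 15.4 and 22.2 CPM in all 16 libraries.

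The guide's effect was also compared between regions, and the medium's effect between guides, as differences of log2 fold changes. The difference between regions was called for 7 of 37 ABC genes in WENR-minus medium (18.9%, against 14.3% of all genes), of which Abca3, Abca7, Abcb1a, Abcc2, Abcc6 and Abcg2 are described. In these 6 the change in proximal organoids was the more negative. The difference was lost for Abca7 in 5 and for Abcc6 in 4 of the 8 fits that left out 1 library (adjusted p 0.053 to 0.089), and it held for Abcb1a, Abcc2 and Abcg2 in all 8. In WENR-plus medium it was called for Abcc2 alone (2.70%, against 4.98%), and for 4 genes with the replicate block. The medium's effect differed between guides in proximal organoids for Abcg2 alone (2.70%, against 3.6%, log2 fold change 3.71, SE 0.90, adjusted p = 0.0433), a call lost in 7 of 8 fits without 1 library (3.07 to 4.45), and for 4 genes with the replicate block and 6 with the culture as a block. In distal organoids 0 of 37 were called by edgeR or DESeq2, 3 had an unadjusted p under 0.05 in edgeR, and 0% of all genes were called. The shares of all genes called in the blocked fits are not given here.

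**Figure D4:**
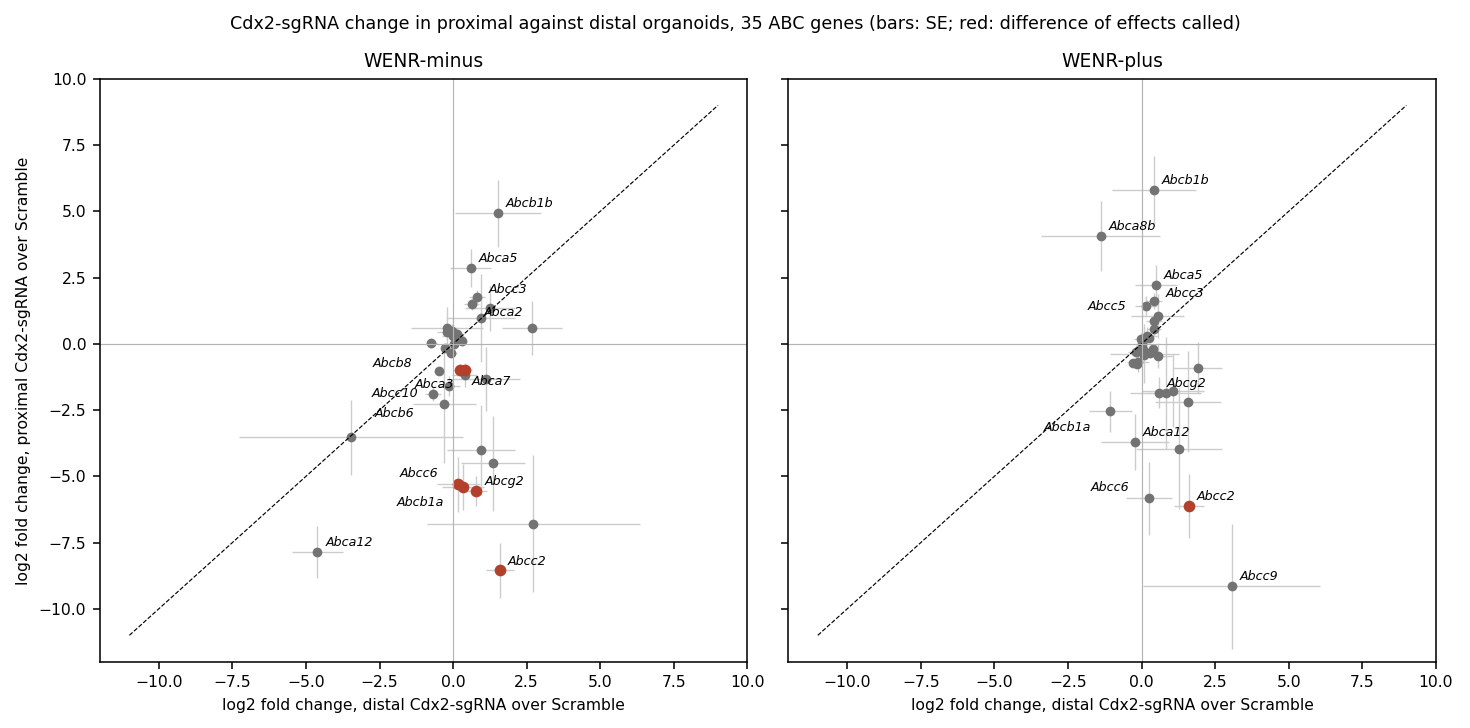
Log2 fold change of 35 tested ABC genes for Cdx2-sgRNA over Scramble-sgRNA in distal (horizontal axis) and proximal organoids (vertical axis), in WENR-minus (left) and WENR-plus medium (right), with standard errors as bars and red for genes whose difference of effects was called. On the dashed line both effects are equal, and the 6 red genes of the WENR-minus panel and Abcc2 in the WENR-plus panel lie below it.

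Genes that work with ABC transporters were read from lists chosen for their function. Of 14 nuclear receptors and factors known to regulate efflux pumps, 8 were called lower and 1 higher with Cdx2-sgRNA in proximal WENR-minus organoids, and 6 lower and 1 higher in WENR-plus medium, where 21.2 and 15.9% of all genes were called in either direction. The largest changes were in Nr5a2, whose 44.01 CPM with Scramble-sgRNA stood against 0.223 and 0.159 CPM with Cdx2-sgRNA, and in the vitamin D receptor gene Vdr (log2 fold change -6.89, SE 0.49, adjusted p = 3.01e-06). In distal organoids the guide moved 2 of the 14 in WENR-minus medium, Nr1h3 higher and Nr5a2 lower (-2.17), and 0 in WENR-plus medium (2 at an unadjusted p under 0.05, and DESeq2 called Vdr), where 5.25 and 0.262% of all genes were called. In WENR-plus medium 6 of the 14 were lower in each distal group, where 26.4 and 33.1% of all genes were called. Ahr was higher in both distal groups, and Nr5a2 in the one with Cdx2-sgRNA. Among those lower in distal Scramble-sgRNA organoids, Nr1i3 (-3.83) and Hnf4a (-1.85) differed most. In proximal organoids 3 were lower with Scramble-sgRNA and 2 with Cdx2-sgRNA (17 and 6.4% of all genes).

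Of 7 tested bile acid transport genes, which include the members Abcb11, Abcc2, Abcc3 and Abcc4, 5 were lower in WENR-plus medium in proximal Scramble-sgRNA organoids (17% of all genes were called). In each distal group 5 were lower and 1, Abcc4, higher (26.4 and 33.1% of all genes). In proximal Cdx2-sgRNA organoids Abcc3 alone was lower (6.4%). For the guide, edgeR called 0 of the 7 in distal organoids in either medium (5.25 and 0.262% of all genes). DESeq2 called Abcc2 there in WENR-minus medium. In proximal WENR-plus organoids 3 were lower and 1, Abcc3, higher with Cdx2-sgRNA (15.9%). In proximal WENR-minus organoids 4 were lower and 1, Abcc3, higher with Cdx2-sgRNA (21.2% of all genes). The apical uptake carrier gene Slc10a2 read 292 and 416 CPM with Scramble-sgRNA and 0.668 and 0.952 CPM with Cdx2-sgRNA (log2 fold change -8.73, SE 0.55, adjusted p = 1.23e-06), and Slc51a, a subunit of the basolateral exporter, read 7.13 and 7.30 CPM against 0 reads. In the list of 15 cholesterol efflux genes 10 were lower in proximal than in distal Cdx2-sgRNA WENR-minus organoids, including the members Abca1, Abcg5 and Abcg8, where 34.6% of all genes were called. In WENR-plus medium 3 of the 15 (Apoa1, Abcg5 and Abcg8) were lower (17% of all genes), and between the Scramble-sgRNA regions 3 were lower in WENR-minus medium and 0 were called in WENR-plus medium (6.08 and 1.75% of all genes). For the guide, 1 (Npc1l1) was lower in proximal WENR-minus and 0 were called in proximal WENR-plus organoids (21.2 and 15.9% of all genes), and 2 (Nr1h3 and Apoa1) were higher in distal WENR-minus and 0 called in distal WENR-plus organoids (5.25 and 0.262%). In WENR-plus medium 2 of the 15 were lower in proximal Scramble-sgRNA and 0 in proximal Cdx2-sgRNA organoids (17 and 6.4% of all genes). In distal organoids 4 were lower with Scramble-sgRNA and 3 with Cdx2-sgRNA (26.4 and 33.1%). Where edgeR called 0 of the 15, DESeq2 called 0 as well, and 2 or 3 had an unadjusted p under 0.05.

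In the peptide loading list of 7, 1 was called lower in WENR-plus medium in proximal Scramble-sgRNA and 1 higher in proximal Cdx2-sgRNA organoids (17 and 6.4% of all genes). In distal organoids 2 were lower with Scramble-sgRNA, and 1 lower and 1 higher with Cdx2-sgRNA (26.4 and 33.1% of all genes). Tapbp was lower in 3 of the 4 groups (-1.66, -1.72 and -1.99) and B2m in distal Scramble-sgRNA organoids. Tap1 was higher in proximal (1.51) and distal Cdx2-sgRNA organoids (1.35). Of 13 genes of haem and iron-sulfur clusters, 1 was lower in WENR-plus medium in all 4 groups, Alas1, the first enzyme of haem synthesis. In each distal group 3 were higher, Cpox in both, and in proximal Cdx2-sgRNA organoids 1 was, Slc25a37. The shares of all genes called are those just given. Of 9 tested uptake and exchange carriers for drugs, 5 were lower in WENR-plus medium in each of the Scramble-sgRNA groups and in distal Cdx2-sgRNA organoids, where 17, 26.4 and 33.1% of all genes were called. In these 3 groups Slc29a1, a nucleoside carrier gene, was higher, as was Slco4a1 in the last. Slc15a1, the peptide carrier, went from 56.3 to 0.539 CPM in distal Scramble-sgRNA organoids (-6.68).

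The 13 members without enough counts lay near 0. Abca6, Abca9, Abca15, Abca16, Abcb5, Abcd2 and Abcg3 held 0 reads in all 16 libraries. The highest count of any library was 1 for Abca8a, 2 for Abcg4, 4 for Abca17, 5 for Abcc12, and 10 for both Abca13 and Abca14. A count of 0 in a library allows up to 3 reads.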

How the data were processed

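RNA of 16 organoid libraries was read with a stranded total RNA kit. The authors ran Salmon 1.1.0 on GENCODE vM23 transcripts and deposited, per library and transcript, estimated counts, TPM values and effective lengths, and their processing notes name mm10 and DESeq2 1.32. Here 139864 of 140748 transcripts were matched to GENCODE M21 (GRCm38) and summed to 54123 genes, and the sums were rounded. The deposited TPM values were summed alike and served for levels between genes only.

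Genes passing filterByExpr (15289) were tested with edgeR 4.0.16 (quasi-likelihood, TMM, prior count 0.125) in R 4.3.3, with 1 coefficient for each of the 8 groups and 8 residual degrees of freedom. Adjusted p-values are Benjamini-Hochberg values over all genes within a comparison. The standard error is the log2 fold change over the square root of F. The script was tested on simulated data. The methods name 2 mice as the source of the replicates, and that a number marks the same mouse in every group is not stated in the sources used here. Deviations from group means of same-numbered libraries correlated by 0.281 to 0.589 between the 2 media of a region and guide and by -0.059 to 0.189 between other groups. The p-values measure the spread between libraries of 2 mice.

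The members, gene lists and markers were chosen with earlier results of these data known. Values in every library are given for the leading member of each subfamily in TPM, for the 3 called members with the largest change per comparison at 1 CPM or more, and for called differences of effects. Other called members are given by their change, and partner genes where called. Some genes are not reported here, but enter the counts and sums. A group at 0 reads was set at 3 reads per library, and the lower bound is the other group's mean over that level. Ratios to groups with up to 3 reads per library carry 95% exact intervals for counting error. Alternatives were RLE size factors, no filter, length-scaled counts, protein-coding transcripts alone, no fold threshold, a replicate block, DESeq2 1.42.0, leaving out each library and, added after the data were seen, each culture read in both media as a block.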

Additional observations from a re-analysis of the deposited data

Results flagged for a closer look

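The effect of Cdx2-sgRNA differed between proximal and distal organoids in WENR-minus medium, by a test of the difference itself, for 6 ABC genes described here. The differences of log2 fold changes (proximal minus distal) were -10.15 for Abcc2, -6.35 for Abcg2, -5.73 for Abcb1a, -5.48 for Abcc6, -1.42 for Abca3 and -1.23 for Abca7. In WENR-plus medium the difference was -7.73 for Abcc2. The fitted values of Abcc2 and Abcc6 depend on the prior count, because Abcc2 held 0 reads in all 4 proximal Cdx2-sgRNA libraries and Abcc6 held 1 and 0 reads in WENR-minus medium. The effect of WENR-plus medium on Abcg2 in proximal organoids differed between Cdx2-sgRNA and Scramble-sgRNA by 3.71 on the log2 scale.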

How the results depend on the processing

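Of 99 called values (a gene in a comparison), 97 were also called with RLE size factors, 96 without the filter, 84 with length-scaled counts, 92 with protein-coding transcripts alone, 98 with the replicate block and 97 with DESeq2, and 37 of 37 with the culture as a block. Over all fits that left out 1 library, 50 of the 99 were always called, 124 of 432 values were no longer called, and 1 changed sign (Abca8b for the guide in proximal WENR-plus organoids, from -0.21 without replicate 2 to 5.03 without replicate 1 of the Cdx2-sgRNA group). The replicate block ended 1 call, that of Abca8b for the guide in proximal WENR-plus organoids (3.34, adjusted p = 0.079 by edgeR).

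Counts of called ABC genes moved by over 1.5 times as follows, and the cause was not tested beyond the construction of each setting. The share of all genes called under each setting is not given here. Without the filter they were 13 for the medium in proximal Scramble-sgRNA (8 with it) and 7 in proximal Cdx2-sgRNA organoids (4), 3 and 4 for the guide in distal organoids in WENR-minus and WENR-plus medium (1 and 0), 9 and 6 between Scramble-sgRNA regions (3 and 0), 14 and 12 for the guide's effect between regions (7 and 1), and 6 and 2 for the medium's effect between guides in proximal and distal organoids (1 and 0). With the replicate block the Scramble-sgRNA regions differed in 6 genes (WENR-minus) and 3 (WENR-plus), the guide's effect between regions in WENR-plus medium in 4 and the medium's effect between guides in proximal organoids in 4. DESeq2 gave 5, 2, 6 and 4 for these same comparisons, and 2 for the guide in distal WENR-minus organoids. The culture block gave 14 for the medium in proximal Scramble-sgRNA organoids and 6 for its difference between guides. Length-scaled counts gave 2 for the guide's effect between regions in WENR-plus medium. No fold threshold gave 17 for the medium in distal Cdx2-sgRNA organoids (11 with it) and 3 for the guide in distal WENR-minus organoids.

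Leaving out 1 library gave 5 to 8, 2 to 4, 9 to 14 and 7 to 13 genes for the medium (proximal Scramble, proximal Cdx2, distal Scramble, distal Cdx2). It gave 9 to 12 and 2 to 6 for the guide in proximal organoids in WENR-minus and WENR-plus medium, 0 to 1 and 0 in distal organoids, 1 to 3 and 0 between Scramble-sgRNA regions, and 12 to 17 and 5 to 7 between Cdx2-sgRNA regions. For the guide's effect between regions it gave 4 to 9 and 1 to 3, and for the medium's effect between guides 0 to 2 in proximal and 0 in distal organoids. A group then keeps 1 library, which is assumed to vary like the others. Some called genes had few reads: Abcc6, Abcb11, Abca1 and Abca4 held at most 28 in any library, and the part of depth in their calls was not tested.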
